A study of Mus musculus with 10 samples.

Results

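Unstimulated basophils grown from mouse bone marrow (BMBs) were set against mast cells grown from the same tissue, on 4 of the 10 arrays of the series. The arrays were chosen by the labelled cell type and by the absence of a stimulus. They held B6 BMBs, *Slpi*-/- BMBs, B6 mast cells and *Slpi*-/- mast cells, with 1 array each, so that each genotype formed a pair of a BMB array and a mast cell array. B6 cells were from wild type mice of strain C57BL6/N, and *Slpi*-/- cells were from mice of that strain lacking secretory leukoprotease inhibitor (SLPI). The study asked what SLPI does in allergic effector cells, and the other 6 arrays held BMBs given IgE and antigen and BM-derived eosinophils (BMEos) with and without LPS. Both cell types compared here were grown in IL-3. BMBs were then taken as c-kit- DX5+ cells by magnetic beads, whereas mast cells stayed in culture for more weeks, and no such bead step is given for them, so cell type, time in culture and isolation cannot be told apart.

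Basophils and mast cells are the main cells that carry the high-affinity IgE receptor, and crosslinking of bound IgE makes both release histamine, lipid mediators and cytokines. Basophils are short-lived cells that circulate in the blood and enter tissue during inflammation, whereas mast cells mature in tissue, live long and store large amounts of proteases on sulphated glycosaminoglycans of their granules. Both depend on the transcription factor GATA2, and C/EBPα and MITF are known as factors that favour the basophil and the mast cell fate in mice.

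RNA was read on Affymetrix Mouse Gene 1.0 ST arrays, and each value below is a log2 signal, on which a difference of 1 is a 2-fold difference. The background of an array was taken as the 95th percentile of its olfactory receptor genes, and it lay between 5.57 and 5.78 on the 4 arrays. Of 19937 named genes, 12998 lay above background on at least 1 of the 6 unstimulated arrays of the series and were tested. Across named genes, the arrays of 1 cell type correlated at 0.992 in BMBs and 0.993 in mast cells, and those of a genotype pair at 0.932 in both pairs. There was 1 array per cell type and genotype, and the sources used here give no number of mice or cultures. The p-values thus measure only the spread between the arrays of the fit. That fit held all 6 unstimulated arrays, so the spread of the BMEos arrays entered it too. Signals of different genes were not set against each other, since probe sets differ in response.

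The labels were first checked against marker genes. *Mcpt8* (gene ID 17231, chromosome 14), a protease gene of mouse basophils, had signals of 12.96 and 12.72 in B6 and *Slpi*-/- BMBs, against 5.43 and 5.13 in mast cells of these genotypes. *Cma1* (gene ID 17228, chromosome 14), a mast cell chymase gene, had signals of 5.61 and 5.79 in BMBs, against 11.99 and 12.19 in mast cells. Each gene was thus near the array background in the other cell type. *Kit* (6.89 and 6.79 in BMBs, 12.78 and 12.80 in mast cells) and *Itga2*, which encodes the integrin bound by the antibody DX5 (9.85 and 9.86 in BMBs, 5.39 and 5.50 in mast cells), followed the isolation of BMBs by these surface proteins and are no findings. All 5 basophil markers were higher in BMBs, and 5 of 6 tested mast cell markers were higher in mast cells. These counts hold *Itga2* and *Kit*, whose direction followed from the isolation, so they bear on the labels only through the other markers. *Cpa3*, a carboxypeptidase of both cells, did not pass. *Tpsab1* and *Mrgprb1*, also on the mast cell list, were not above background on any of the 4 arrays.

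Markers of other cells differed in part between the groups. Of 15 neutrophil markers, 11 and 8 lay above background on the B6 and *Slpi*-/- BMB arrays and 1 and 3 on the mast cell arrays, with mean signals of 7.45 and 6.62 against 5.26 and 5.19. The neutrophil granule genes *Mpo* (8.84 and 6.0), *Elane* (7.14 and 5.47) and *Ngp* (6.77 and 5.02) were above background on the B6 BMB array and near or below it on the *Slpi*-/- BMB array. *S100a8*, *Camp* and *Ltf*, abundant in neutrophils, lay between 3.84 and 5.78 on both BMB arrays. The highest of these values was just above the BMB array backgrounds (5.57 and 5.68). *S100a8* differed by 1.52 towards BMBs without the *Slpi*-/- BMB array and changed sign without the B6 BMB array. The neutrophil surface genes *Ly6g* (12.38 and 12.68) and *Cxcr2* (11.42 and 11.41) had some of the largest differences towards BMBs. Of 14 neutrophil markers tested, 5 were higher in BMBs, and 11 were when the *Slpi*-/- BMB array was left out. Of 18 measured markers of monocytes, macrophages and dendritic cells, 11 and 10 were above background on the BMB arrays and 3 and 5 on the mast cell arrays, with mean signals of 6.58 and 6.56 against 5.89 and 5.82, and *Cd14* and *C1qa* were below it on all 4 arrays. All 12 platelet and megakaryocyte markers were above background on both BMB arrays and 8 on each mast cell array, with mean signals of 8.93 and 8.85 against 7.23 and 7.38. By the test 8 of the 12 were higher in BMBs and 3 in mast cells. On the B6 and *Slpi*-/- BMEos arrays 10 and 11 were above background. Eosinophil granule genes (*Prg2*, *Epx* and *Ear6*) lay between 4.53 and 5.58 on the 4 arrays. Of the T and NK cell, B cell and red cell markers, 2 to 5 per list were above background on each array. The part of such cells in the results below was not tested, and in bulk RNA fewer cells of a type and less RNA per cell cannot be told apart.

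BMBs and mast cells differed at a large share of genes, nearly evenly in the 2 directions. With limma's moderated test and Benjamini-Hochberg adjustment at 0.05, 2438 genes were higher in BMBs (18.8% of genes tested) and 2331 were higher in mast cells (17.9%), 4769 in all (36.7%). Counts for the gene lists below are to be read beside these shares of 18.8% and 17.9%. Each of the 4769 differed in the same direction in the B6 pair and in the *Slpi*-/- pair. The gap between the pairs enters the spread of this test, so that followed from the test and is no separate result. Most differences were small, with a median of the absolute difference of 0.23 over all genes tested and a median difference of -0.01. At least 2-fold in both genotypes were 680 genes higher in BMBs and 571 higher in mast cells, and at least 16-fold were 46 and 26. Of the genes higher in BMBs, 436 were below background on both mast cell arrays, and of those higher in mast cells, 307 were below background on both BMB arrays. For such a gene the fold is given as a bound, with the dim array counted at its background where the gene lay lower.

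**Figure D1:**
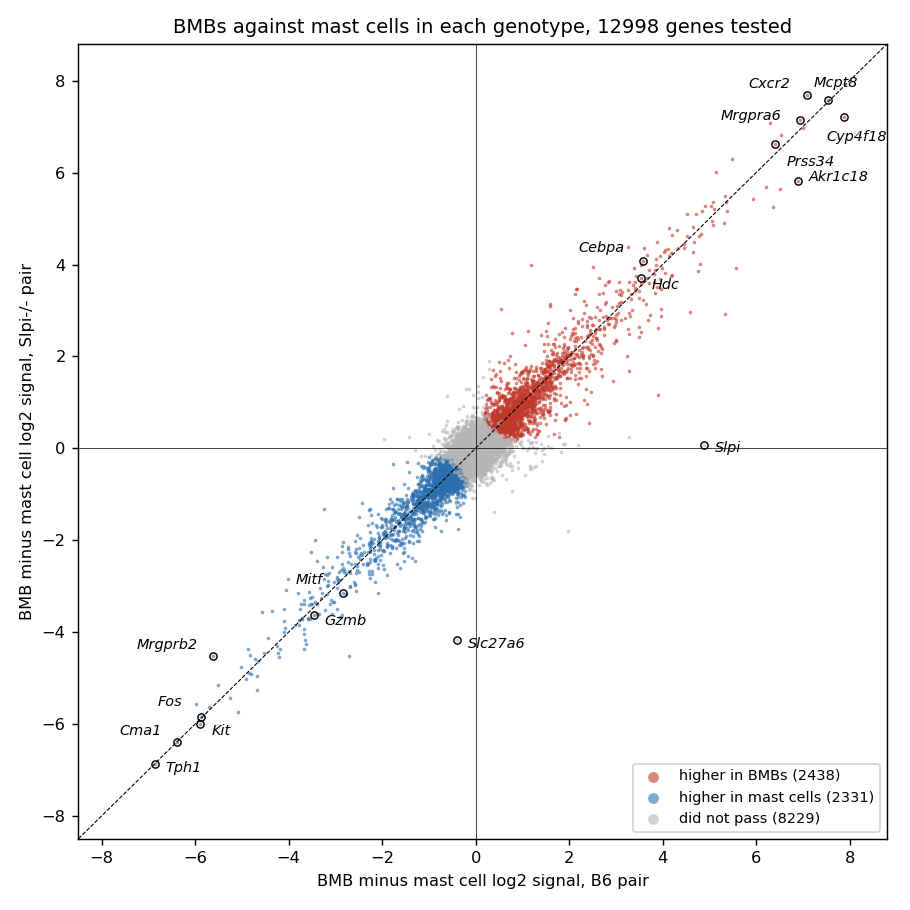
Difference in log2 signal between BMBs and mast cells for each gene tested, in the B6 pair (horizontal axis) and in the *Slpi*-/- pair (vertical axis), with the broken line where both pairs are equal. Points lie along that line over a range of more than 7 on the log2 scale in the BMB direction (*Mcpt8*, a measured 7.56 over both pairs) and more than 6 in the mast cell direction (*Tph1*, -6.87), and *Slpi* and *Slc27a6* lie away from it.

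Among the 15 genes with the largest differences towards BMBs were secreted proteases, chemokines and chemoattractant receptors. *Mcpt8* had a measured difference of 7.56 (SE 0.10, limma adjusted p = 2.21e-07), at least 138-fold. *Prss34*, a second basophil protease gene (mast cell protease 11), had signals of 12.99 and 12.78 in BMBs, against 6.58 and 6.16 in mast cells, a difference of 6.51 (SE 0.19, limma adjusted p = 1.33e-06). *Cxcr2*, a receptor for neutrophil-attracting chemokines, had signals of 11.42 and 11.41 in BMBs, against 4.34 and 3.74 in mast cells, at least 51.5-fold apart (limma adjusted p = 6.05e-07). For each of these genes the groups were far further apart than the arrays within a group. *Mrgpra6*, an orphan receptor of the Mas-related family, had signals of 11.57 and 11.75 in BMBs, against 4.63 and 4.60 in mast cells (at least 61.2-fold). *Akr1c18*, a 20α-hydroxysteroid dehydrogenase, was at least 24.2-fold higher in BMBs but was read less evenly there, at 11.11 in B6 and 9.53 in *Slpi*-/- cells (measured differences of 5.69 without the B6 BMB array and 7.01 without the *Slpi*-/- one). The chemokine genes *Ccl6* (6.69), *Ccl9* (5.89) and *Ppbp* (at least 39.7-fold) belonged to this group as well. So did *Ly6g* (12.38 and 12.68 in BMBs, 5.38 and 5.70 in mast cells), a surface protein gene used to mark neutrophils. *Ly6g* and *Cxcr2* are on the neutrophil list and *Ppbp* on the platelet list given above, and the part of those cells in these values was not tested. *Adgre1*, which encodes an adhesion receptor that marks macrophages (at least 40.8-fold), *Cyp4f18*, an enzyme that degrades leukotriene B4 (at least 61.3-fold), *Anxa2* (at least 27.0-fold), the uridine phosphorylase *Upp1* (at least 30.0-fold), *Igsf6* (at least 25.8-fold) and the peptidoglycan-binding *Pglyrp1* (a difference of 5.68) completed it. The genes were ranked by measured differences, also where a cell type was below background.

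Towards mast cells, the 15 largest differences held mediator genes and several immediate early genes. *Tph1*, the enzyme that starts serotonin synthesis outside the brain, had signals of 5.76 and 5.79 in BMBs, against 12.62 and 12.67 in mast cells, a difference of -6.87 (SE 0.10, limma adjusted p = 2.21e-07). *Cma1* differed by -6.39 (SE 0.09, limma adjusted p = 2.21e-07). Both BMB arrays lay at background for these genes. *Mrgprb2*, the receptor through which basic secretagogues activate mouse mast cells, had signals of 3.33 and 4.0 in BMBs, against 8.96 and 8.52 in mast cells, at least 8.66-fold apart (limma adjusted p = 1.23e-05). *Ccl2*, a monocyte-attracting chemokine, had signals of 6.74 and 6.23 in BMBs, against 11.82 and 11.97 in mast cells, a difference of -5.41. The immediate early genes *Fos* (-5.85), *Fosb* (-5.35), *Jun* (-4.88), *Egr2* (-4.87) and *Nr4a1* (-4.86) are described with the transcription factors. The remaining genes of the 15 were *Kit* (-5.95), the dynamin gene *Dnm3* (at least 29.8-fold), *Arhgap20* (at least 18.2-fold), *Rgs13* (at least 4.35-fold), a brake on G protein signals, the actin-severing *Scin* (-4.96) and *Olfr920* (-5.33). *Kit* followed the isolation of BMBs, as given above. *Olfr920* is an olfactory receptor gene and belonged to the set that gave the background, with signals of 5.87 and 6.27 in BMBs against 11.37 and 11.42 in mast cells.

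**Figure D2:**
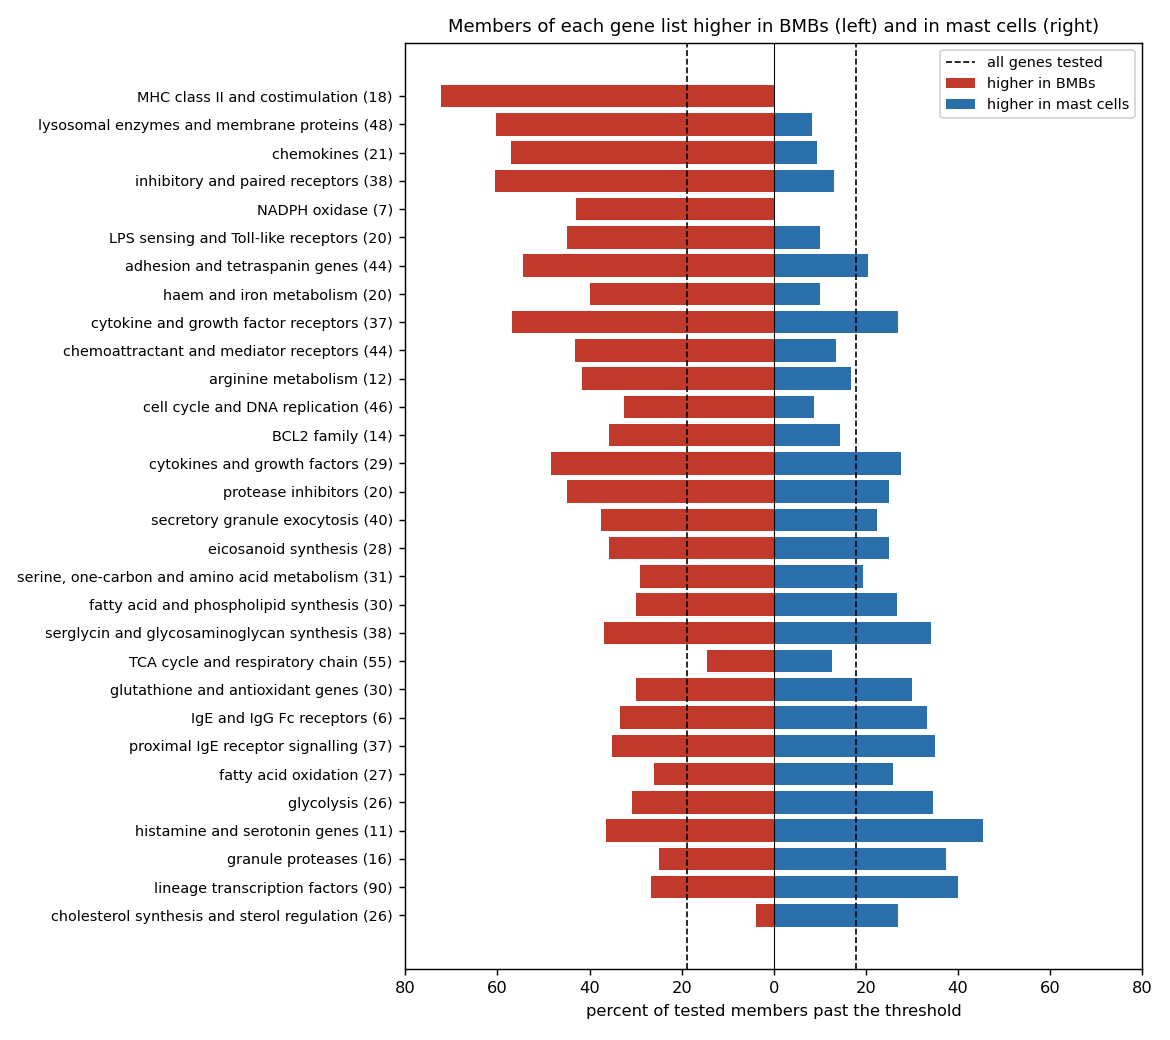
Share of the tested members of each gene list (number tested in parentheses) that were higher in BMBs, drawn to the left, and higher in mast cells, drawn to the right, by limma at an adjusted p of 0.05. Broken lines give the shares over all genes tested, 18.8% and 17.9%. MHC class II, lysosomal, chemokine and inhibitory receptor genes reach far to the left, and more transcription factor genes are drawn to the right than to the left.

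Genes of the IgE receptor itself differed little. *Fcer1a*, the IgE-binding chain, had signals of 11.43 and 11.47 in BMBs, against 12.16 and 12.24 in mast cells, a difference of -0.75 (SE 0.22, limma adjusted p = 0.0371). *Ms4a2*, the amplifying beta chain, differed by -0.36 (SE 0.11, limma adjusted p = 0.048), and the signalling gamma chain *Fcer1g* by 0.19 (limma adjusted p = 0.157). The IgG receptor genes differed more. *Fcgr2b*, the inhibitory IgG receptor, had signals of 11.10 and 11.18 in BMBs, against 9.52 and 9.58 in mast cells, a difference of 1.59 (SE 0.09, limma adjusted p = 2.59e-05). *Fcgr3*, an activating IgG receptor, was higher in BMBs by 0.99. Of 6 tested Fc receptor genes, 2 were higher in BMBs and 2 in mast cells. That fit, and those below without 1 array, also held the BMEos arrays. With the BMB and mast cell arrays alone, *Fcer1a* still passed and *Ms4a2* did not. The calls of *Fcer1a* and *Ms4a2* were the weak ones, since without the *Slpi*-/- BMB array both were lost and without any other single array 1 member was higher in mast cells. The limma adjusted p of *Fcer1a* was 0.2 without the *Slpi*-/- BMB array and 0.184 without the B6 mast cell array, and that of *Ms4a2* was 0.0704, 0.214 and 0.344 without the B6 BMB, the *Slpi*-/- BMB and the *Slpi*-/- mast cell array.

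Downstream of the receptor, the list of 37 signalling genes split evenly, with 13 higher in BMBs, 13 higher in mast cells and a median difference of -0.08. The kinase *Tec* had signals of 10.41 and 10.36 in BMBs, against 7.08 and 7.02 in mast cells (3.34, SE 0.09, limma adjusted p = 1.23e-06). *Fyn*, a Src family kinase that starts the second branch of IgE signalling, had signals of 9.10 and 9.08 in BMBs, against 6.55 and 6.58 in mast cells (2.53, SE 0.10). *Grap2*, which encodes the adaptor Gads that binds LAT, had signals of 5.76 and 5.99 in BMBs, against 9.87 and 9.76 in mast cells (-3.94, SE 0.15, limma adjusted p = 4.29e-06). For each of these genes the groups lay far apart and the arrays within a group close together. The inositol trisphosphate receptor *Itpr3* (2.87) and the ubiquitin ligase *Cbl* (1.52) were also higher in BMBs. *Pik3r6*, a regulatory subunit of PI3Kγ (-2.59), the Ras activator *Rasgrp4* (-1.72), the protein kinase C gene *Prkcb* (-1.55) and the calcium sensor *Stim1* (-1.38) were higher in mast cells. *Syk*, the kinase recruited by the receptor, was higher in BMBs by 0.61, and the adaptor *Lat* differed by -0.24 and did not pass (limma adjusted p = 0.137).

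Cytokine receptor genes were more often higher in BMBs, 21 of 37 tested against 10 higher in mast cells, with a median difference of 0.56. *Kit*, which followed the isolation of BMBs, is among the 10. *Ifngr2*, the signalling chain of the interferon-γ receptor, had signals of 10.61 and 10.56 in BMBs, against 5.57 and 5.28 in mast cells, at least 29.1-fold apart (limma adjusted p = 6.28e-07). *Il7r*, which also forms the TSLP receptor, had signals of 9.75 and 10.28 in BMBs, against 7.11 and 6.59 in mast cells (3.17, SE 0.22). *Il18rap*, a chain of the IL-18 receptor, was higher in BMBs by 3.15. In the other direction stood *Il4ra*, the IL-4 and IL-13 receptor chain, with signals of 9.74 and 9.44 in BMBs, against 12.00 and 11.92 in mast cells (-2.37, SE 0.11, limma adjusted p = 9.72e-06). The decoy receptor *Il1r2* (at least 12.8-fold) and *Tgfbr1* (-1.87) were also higher in mast cells. Of the receptor for IL-3, in which both cells were grown, the binding chain *Il3ra* was higher in BMBs by 0.74 (limma adjusted p = 0.00195), while the shared chains *Csf2rb* (0.14) and *Csf2rb2* (-0.05) did not pass.

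Receptors for chemokines, complement and lipids showed some of the largest contrasts among surface genes. Of 44 tested, 19 were higher in BMBs and 6 in mast cells, and the median difference was 0.29. *Ccr2*, the receptor for CCL2, had signals of 9.52 and 9.80 in BMBs, against 4.43 and 4.59 in mast cells, at least 15.3-fold apart (limma adjusted p = 1.23e-06). *S1pr1*, which guides leukocytes out of tissue towards sphingosine 1-phosphate, had signals of 9.93 and 10.07 in BMBs, against 5.39 and 5.46 in mast cells, at least 19.3-fold apart. The complement receptors *C5ar1* (at least 6.96-fold) and *C3ar1* (2.64) and the prostacyclin receptor *Ptgir* (2.90) were higher in BMBs too. *Cx3cr1*, the receptor for fractalkine, had signals of 6.48 and 6.18 in BMBs, against 11.15 and 11.13 in mast cells (-4.81, SE 0.11, limma adjusted p = 6.05e-07). The chemokine receptor *Ccr7* was higher in BMBs by 2.34, with signals of 7.96 in B6 and 9.60 in *Slpi*-/- BMBs against 6.38 and 6.50 in mast cells. The ATP-gated channel *P2rx7* had signals of 7.60 and 9.63 in BMBs, against 10.84 and 10.96 in mast cells (-2.29, SE 0.48, limma adjusted p = 0.00974), so that the BMB arrays were far apart for both genes while the mast cell arrays lay close together. Without the B6 and without the *Slpi*-/- BMB array, the difference was 3.13 and 1.56 for *Ccr7* and -1.24 and -3.33 for *P2rx7*. The histamine receptor *Hrh4* differed by 0.02 (limma adjusted p = 0.907), with signals of 9.52 and 9.75 in BMBs and 9.70 and 9.53 in mast cells.

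Inhibitory and paired receptors, which raise or lower the threshold of activation, were higher in BMBs at 23 of 38 tested genes and in mast cells at 5, with a median difference of 0.67. The count in mast cells was 3 when either BMB array was left out. *Clec4e*, the C-type lectin Mincle that binds mycobacterial and fungal glycolipids, had signals of 9.24 and 9.16 in BMBs, against 3.93 and 4.26 in mast cells, at least 11.1-fold apart (limma adjusted p = 7.07e-07). Its partner *Clec4d* (at least 7.07-fold), *Clec5a* (at least 3.36-fold), *Ceacam1* (at least 8.38-fold), *Lilra6* (4.74, or 4.08 without the B6 and 5.39 without the *Slpi*-/- BMB array) and the CD200 receptor *Cd200r1* (2.42) were also higher in BMBs. *Cd200r3*, an activating receptor of mouse basophils and mast cells, had signals of 11.06 and 11.16 in BMBs, against 9.39 and 9.22 in mast cells (1.81, SE 0.13, limma adjusted p = 5.44e-05). *Cd300c* (-2.77) and the inhibitory *Cd300a* (-1.73) were higher in mast cells.

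Adhesion genes showed a change of integrin chains. Of 44 tested, 24 were higher in BMBs and 9 in mast cells, with a median difference of 0.61. *Itga2*, which followed the isolation of BMBs, is among the 24. *Itgb2*, the beta chain of the leukocyte integrins, had signals of 12.05 and 12.05 in BMBs, against 7.38 and 7.55 in mast cells (4.59, SE 0.10, limma adjusted p = 5.48e-07). Its partner chains *Itgal* (10.68 and 10.71 in BMBs, 6.15 and 5.60 in mast cells) and *Itgam* (9.61 and 9.63 in BMBs, 5.15 and 5.17 in mast cells) were higher in BMBs as well, so that each chain of LFA-1 and Mac-1 was read well apart in the 2 cell types. *Itga6* (at least 17.2-fold), *Itga1* (at least 3.53-fold), *Itgb5* (at least 7.94-fold) and *Itgb1* (3.11), chains that bind laminin, collagen and vitronectin in several pairings, followed the same direction. *Cadm3*, a homophilic adhesion molecule best known from neurons, had signals of 5.63 and 5.65 in BMBs, against 9.50 and 9.49 in mast cells (-3.85, SE 0.10, limma adjusted p = 8.5e-07). The sialomucin *Cd34* (-2.59) and the activation antigen *Cd69* (-2.32) were higher in mast cells, and the granule tetraspanin *Cd63* differed by -0.04 (limma adjusted p = 0.823).

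**Figure D3:**
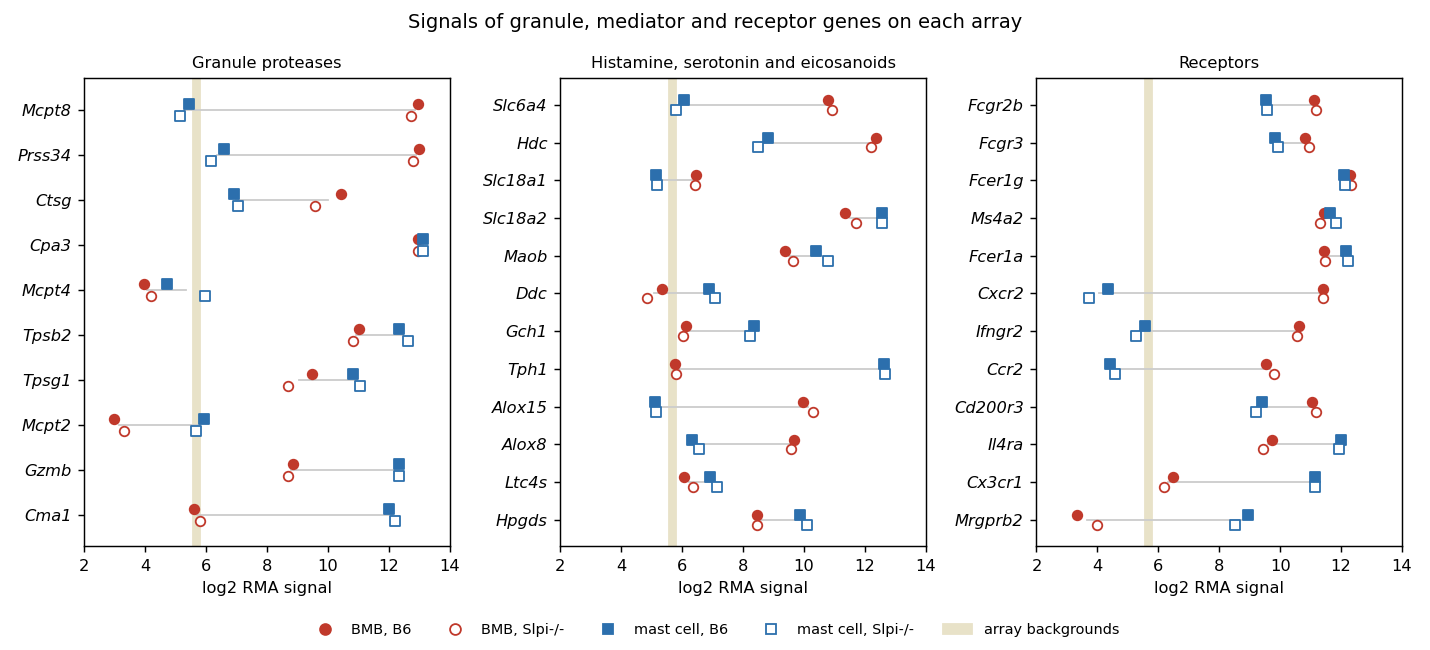
Log2 signals of named genes on each of the 4 arrays, in panels for granule proteases, for histamine, serotonin and eicosanoid genes, and for receptors. Circles are BMBs and squares are mast cells, filled for B6 and open for *Slpi*-/-, and the shaded band is the range of the array backgrounds (5.57 to 5.78). *Mcpt8* and *Prss34* stand at the BMB end and *Cma1* and *Gzmb* at the mast cell end, while *Cpa3* and *Fcer1a* lie close together in both cells.

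Granule proteases parted the cells in both directions. Of 16 tested, 4 were higher in BMBs (25.0%) and 6 in mast cells (37.5%), against 18.8% and 17.9% over all genes tested. The median difference was -0.16, and -0.28 without the *Slpi*-/- BMB array. Besides *Mcpt8* and *Prss34*, *Ctsg*, a serine protease of neutrophils and mast cells, was higher in BMBs, with signals of 10.44 and 9.56 in BMBs against 6.91 and 7.04 in mast cells (3.03, SE 0.25, limma adjusted p = 0.000124). *Gzmb*, the granzyme of cytotoxic cells that mast cells also store, had signals of 8.86 and 8.70 in BMBs, against 12.32 and 12.33 in mast cells (-3.54, SE 0.11, limma adjusted p = 1.51e-06). The tryptase genes *Tpsb2* (11.02 and 10.81 in BMBs, 12.32 and 12.63 in mast cells) and *Tpsg1* (9.46 and 8.67 in BMBs, 10.82 and 11.05 in mast cells) were higher in mast cells but were read well above background in BMBs too. *Cpa3* had a signal of 12.94 on both BMB arrays, against 13.11 on both mast cell arrays (-0.17, limma adjusted p = 0.443). The chymase genes *Mcpt4* (3.96 and 4.18 in BMBs, 4.71 and 5.97 in mast cells) and *Mcpt2* (2.97 and 3.30 in BMBs, 5.94 and 5.65 in mast cells) passed the test as well, but for each only 1 of the 2 mast cell arrays was above background. *Mcpt4* did not pass without the *Slpi*-/- BMB array (limma adjusted p = 0.0812), and its difference was -1.91 without the B6 and -0.64 without the *Slpi*-/- mast cell array. Probe sets of such near copies, and of the *Mrgpra* and *Csf2rb* genes, may read more than 1 member of a family, which was not tested.

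*Mcpt8* and *Cma1* lie in the same cluster of protease genes on chromosome 14. In RefSeq (GRCm38.p6) the genes of the cluster with a named probe set run in the order *Cma1*, *Mcpt1*, *Mcpt2*, *Mcpt4*, *Mcpt8*, *Ctsg*, *Gzme*, *Gzmd*, *Gzmg*, *Gzmn*, *Gzmf*, *Gzmc* and *Gzmb*. Any member without a named probe set is left out, and the stretch was chosen after its values were seen. Of these 13 genes, 6 were tested. *Mcpt8* and its neighbour *Ctsg* were higher in BMBs, and the 4 genes *Cma1*, *Mcpt2*, *Mcpt4* and *Gzmb* were higher in mast cells. The other 7 were below background on all 4 arrays. The promoters of the protease genes on which the contrast turns are printed below from RefSeq (GRCm38.p6), from 250 bases before to 50 bases after the gene start. GATA2 is a factor of both cells, so each match to its core GATAA on either strand is in capitals. They are *Mcpt8* at chr14:56085148-56085447 and *Cma1* at chr14:55944626-55944925 on the minus strand, *Prss34* at chr17:25298144-25298443 on the plus strand, and *Cpa3*, which did not differ between the cells beyond the test, at chr3:20242132-20242431 on the minus strand.
Mcpt8: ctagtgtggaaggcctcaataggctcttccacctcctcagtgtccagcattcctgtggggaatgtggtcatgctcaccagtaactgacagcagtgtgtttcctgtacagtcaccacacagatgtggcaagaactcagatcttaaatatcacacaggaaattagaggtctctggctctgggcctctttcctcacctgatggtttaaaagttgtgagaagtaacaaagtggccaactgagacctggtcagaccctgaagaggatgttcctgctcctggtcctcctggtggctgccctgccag
Prss34: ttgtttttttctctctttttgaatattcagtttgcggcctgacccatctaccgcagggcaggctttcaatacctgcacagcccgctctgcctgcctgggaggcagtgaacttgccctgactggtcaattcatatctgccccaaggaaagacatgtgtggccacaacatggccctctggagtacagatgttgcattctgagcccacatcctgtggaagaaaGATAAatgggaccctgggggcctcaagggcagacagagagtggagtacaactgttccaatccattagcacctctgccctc
Cma1: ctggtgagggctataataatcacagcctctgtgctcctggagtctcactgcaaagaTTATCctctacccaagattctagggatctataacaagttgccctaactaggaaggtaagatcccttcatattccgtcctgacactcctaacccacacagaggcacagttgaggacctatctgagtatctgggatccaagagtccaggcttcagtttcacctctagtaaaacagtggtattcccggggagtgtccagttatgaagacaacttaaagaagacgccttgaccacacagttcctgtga
Cpa3: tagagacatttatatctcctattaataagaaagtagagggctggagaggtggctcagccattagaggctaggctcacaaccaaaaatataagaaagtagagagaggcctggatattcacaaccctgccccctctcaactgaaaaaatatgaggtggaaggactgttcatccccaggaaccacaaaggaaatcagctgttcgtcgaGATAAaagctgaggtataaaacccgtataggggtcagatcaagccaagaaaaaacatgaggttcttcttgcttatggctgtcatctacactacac
The first base of the match lay at position -30 in *Prss34*, -194 in *Cma1* and -45 in *Cpa3*, counted from the gene start, and the *Mcpt8* window held none. Of 10319 tested genes with a promoter in the table, 16.5% held GATAA in the same window, against 18.6% of 533 genes at least 2-fold higher in BMBs and 17.6% of 442 genes at least 2-fold higher in mast cells. The C/EBP letters TTGCNNAA (N is any base, both strands) were held by 13.1% and 8.8% of these promoters and by 8.0% of all. The AP-1 letters TGANTCA were held by 7.7% and 7.5%, against 5.4% of all, and the E-box letters CATGTG by 12.0% and 9.7%, against 9.0% of all.

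Genes of histamine and serotonin differed in both directions. *Hdc*, which makes histamine from histidine, had signals of 12.35 and 12.21 in BMBs, against 8.83 and 8.50 in mast cells (3.62, SE 0.10, limma adjusted p = 1.16e-06). *Tph1* was far higher in mast cells, as given above. *Gch1*, which starts the synthesis of the cofactor that TPH1 needs, had signals of 6.12 and 6.04 in BMBs, against 8.37 and 8.22 in mast cells (-2.22, limma adjusted p = 0.000112). *Ddc*, the decarboxylase of the last step to serotonin, was below background on both BMB arrays and had signals of 6.87 and 7.09 in mast cells, at least 2.55-fold higher there. The serotonin uptake transporter *Slc6a4* ran against these genes, with signals of 10.77 and 10.91 in BMBs, against 6.05 and 5.80 in mast cells (4.91, SE 0.16, limma adjusted p = 1.94e-06). Of the vesicular transporters that load amines into granules, *Slc18a2* differed by -1.04 (limma adjusted p = 0.00316) and *Slc18a1*, below background on both mast cell arrays, was at least 1.64-fold higher in BMBs. *Maob*, which breaks down amines, differed by -1.08. In all, 4 of 11 tested genes were higher in BMBs and 5 in mast cells.

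Among 28 tested genes of eicosanoid synthesis, 10 were higher in BMBs and 7 in mast cells, with a median difference of 0.13, and 6 were higher in BMBs when the B6 BMB array was left out. *Alox15*, the 12/15-lipoxygenase, had signals of 9.95 and 10.30 in BMBs, against 5.11 and 5.13 in mast cells, at least 21.1-fold apart (limma adjusted p = 6.05e-07). *Alox8*, an arachidonate lipoxygenase, had signals of 9.67 and 9.56 in BMBs, against 6.33 and 6.55 in mast cells (3.17, SE 0.12, limma adjusted p = 3.46e-06). *Hpgds*, which makes prostaglandin D2, had signals of 8.47 on both BMB arrays, against 9.87 and 10.08 in mast cells (-1.50, SE 0.12, limma adjusted p = 9.86e-05). *Ltc4s*, the leukotriene C4 synthase, was also higher in mast cells (-0.81, limma adjusted p = 0.00195). *Pla2g7*, which breaks down platelet-activating factor, had signals of 7.30 and 8.89 in BMBs, against 10.73 and 10.89 in mast cells (-2.71, SE 0.36). Its difference was -1.94 without the B6 BMB array and -3.49 without the *Slpi*-/- one.

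*Srgn*, the core protein of the granule proteoglycan, was read alike in BMBs (12.93 and 12.84) and mast cells (12.95 and 13.01), with a difference of -0.09 (limma adjusted p = 0.51). The enzymes that build and sulphate its sugar chains differed, with 14 of 38 tested genes of the list higher in BMBs and 13 in mast cells and a median difference of -0.13. The largest differences lay towards mast cells and held enzymes of heparin and heparan sulphate. *Ndst3*, an N-deacetylase/N-sulphotransferase, was below background in BMBs (4.80 and 5.07) and had signals of 8.53 and 8.47 in mast cells, at least 7.34-fold higher (limma adjusted p = 2.61e-06). *Ndst2*, the enzyme that heparin synthesis in mouse mast cells depends on, had signals of 10.01 and 10.23 in BMBs, against 11.90 and 11.95 in mast cells (-1.81). The sulphotransferases *Hs6st2* (-3.47) and *Hs3st1* (-2.05) and *Papss2*, which makes the sulphate donor (-2.85), followed this direction. So did *Chsy1*, which polymerises chondroitin, with signals of 8.0 and 8.09 in BMBs, against 11.73 and 11.80 in mast cells (-3.72, SE 0.12, limma adjusted p = 1.86e-06). Sulphotransferases of chondroitin and dermatan sulphate were higher in BMBs at *Chst13* (2.32), *Ust* (at least 1.71-fold) and *Chst12* (1.15), while *Chst15* differed by -0.04.

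Genes of granule release differed in both directions. Of 40 tested exocytosis genes, 15 were higher in BMBs and 9 in mast cells, with a median difference of 0.11. These counts were 9 and 6 without the B6 mast cell array and 11 and 5 without the *Slpi*-/- one. *Rab27a*, a GTPase of secretory lysosomes, had signals of 9.71 and 9.59 in BMBs, against 7.30 and 7.13 in mast cells (2.44, SE 0.09, limma adjusted p = 4.2e-06). Its close relative *Rab27b* had signals of 8.35 and 7.74 in BMBs, against 9.24 and 9.27 in mast cells (-1.21). The 2 genes thus ran in opposite directions. *Lyst*, mutated in Chediak-Higashi syndrome (2.08), and the syntaxin *Stx11* (1.87) were higher in BMBs. *Mlph*, which links Rab27 to myosin (-2.84), *Rab38* (-2.04) and *Stxbp5* (-1.58) were higher in mast cells. Of the SNAREs that act in mast cell degranulation, *Snap23* was higher in BMBs by 0.60, and *Vamp8* (-0.13) and *Stx4a* (-0.17) did not pass.

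Lysosomal genes lay mostly towards BMBs, with 29 of 48 tested higher there against 4 higher in mast cells, with a median difference of 0.65. *Lyz2*, the lysozyme of myeloid cells, had signals of 10.43 and 10.65 in BMBs, against 6.57 and 6.52 in mast cells (3.99, SE 0.15, limma adjusted p = 4.4e-06). The cysteine protease *Ctsl* had signals of 8.95 and 9.22 in BMBs and was below background in mast cells (5.34 and 4.86), at least 10.2-fold lower there. *Ctss*, which trims the MHC class II invariant chain in antigen-presenting cells, was at least 4.79-fold higher in BMBs. *Hexa*, a chain of the β-hexosaminidase used to measure degranulation, was higher in BMBs by 0.50, and *Ctsf* was higher in mast cells (-1.38). The call of *Hexa* was lost without the B6 BMB array (limma adjusted p = 0.113) and without the B6 or the *Slpi*-/- mast cell array (0.0839 and 0.0616).

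Transcription factor genes leaned towards mast cells, with 24 of 90 tested higher in BMBs, 36 higher in mast cells and a median difference of -0.13. The 36 include immediate early genes (*Egr1*, *Egr2*, *Egr3*, *Nr4a1* and *Nr4a2*), whose values cannot be told apart from handling, as given below. *Nfil3*, a bZIP repressor that responds to IL-3 in other haematopoietic cells, had signals of 9.25 and 9.28 in BMBs, against 5.86 and 5.85 in mast cells (3.41, SE 0.10, limma adjusted p = 1.32e-06). *Ets1* had signals of 9.62 and 9.58 in BMBs, against 6.30 and 6.33 in mast cells (3.29, SE 0.09, limma adjusted p = 1.3e-06). *Id1*, an inhibitor of E proteins (3.06), and *Cebpa* (3.83) were higher in BMBs, and *Spi1*, the gene of PU.1, by 0.80. Towards mast cells, *Mitf* had signals of 7.73 and 7.52 in BMBs, against 10.57 and 10.66 in mast cells (-2.99, SE 0.13, limma adjusted p = 8.43e-06). *Ahr*, the aryl hydrocarbon receptor, had signals of 6.09 and 6.05 in BMBs, against 10.34 and 10.36 in mast cells (-4.28, SE 0.11, limma adjusted p = 9.63e-07). For each of these factors the arrays of a cell type lay close together and the cell types did not overlap. *Myb*, a factor of progenitors (-3.34), *Klf2* (-2.89), *Creb3l1* (-2.86) and the Notch target *Hes1* (-2.75) were also higher in mast cells. *Gata2* (12.20 and 12.27 in BMBs, 12.01 and 12.10 in mast cells) and *Runx1* (11.42 and 11.41 in BMBs, 11.36 and 11.46 in mast cells) did not pass (limma adjusted p = 0.18 and 0.951). *Gata1* differed by -0.38, close to the threshold (limma adjusted p = 0.0498), and did not pass without the *Slpi*-/- BMB array (0.268) or the *Slpi*-/- mast cell array (0.354).

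Several immediate early factors, which cells switch on within minutes of a stimulus, were higher in mast cells, although *Atf3* (-0.15), *Fosl1* (-0.21) and *Fosl2* (-0.28) did not pass. Those named outside the list were chosen after their values were seen. *Fos* had signals of 5.69 and 5.80 in BMBs, against 11.56 and 11.64 in mast cells (-5.85, SE 0.10, limma adjusted p = 4.4e-07). *Jun* had signals of 6.78 and 7.03 in BMBs, against 11.79 on both mast cell arrays. *Egr1* had signals of 8.33 and 8.21 in BMBs, against 11.88 and 11.91 in mast cells. For each of these genes both mast cell arrays lay far above both BMB arrays. *Egr2* (-4.87), *Egr3* (-4.38), *Nr4a1* (-4.86) and *Fosb* (-5.35) followed. The mast cells carried no stimulus by their labels. Handling before lysis, including the bead step of BMBs, cannot be told apart from cell type here, and its part in these values was not tested.

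**Figure D4:**
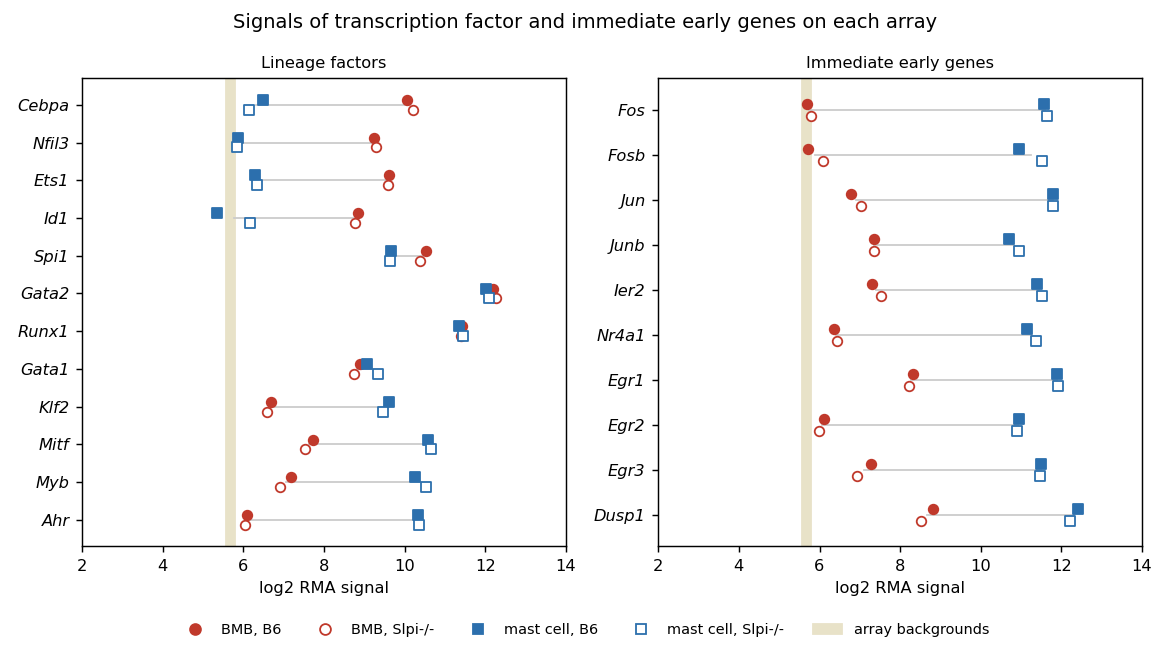
Log2 signals on each of the 4 arrays of lineage transcription factors (left) and of immediate early genes (right), with circles for BMBs, squares for mast cells, filled symbols for B6 and open symbols for *Slpi*-/-, and a shaded band for the range of array backgrounds. *Gata2* and *Runx1* lie close together in both cells, *Cebpa*, *Nfil3* and *Ets1* stand apart towards BMBs and *Mitf*, *Myb* and *Ahr* towards mast cells, and all the immediate early genes drawn lie higher in mast cells. *Junb*, *Ier2* and *Dusp1* were added to the plot after their values were seen.

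Cytokine and chemokine genes were more often higher in BMBs. Among 29 tested cytokine and growth factor genes, 14 were higher in BMBs and 8 in mast cells, with a median difference of 0.33, and without the *Slpi*-/- mast cell array 9 were higher in BMBs and 6 in mast cells. *Hgf*, the hepatocyte growth factor, had a signal of 12.07 on both BMB arrays, against 8.04 and 7.81 in mast cells (4.15, SE 0.11, limma adjusted p = 1.07e-06). *Csf1*, the macrophage growth factor, was higher in BMBs by 2.69. The type 2 cytokine genes differed by less. *Il4* had signals of 7.23 and 7.36 in BMBs, against 6.57 and 6.41 in mast cells (0.81, limma adjusted p = 0.00242). *Il13* had signals of 7.15 and 6.84 in BMBs, against 7.54 and 7.33 in mast cells (-0.44, limma adjusted p = 0.0426), which did not pass without the *Slpi*-/- BMB array (0.232), the B6 mast cell array (0.193) or the *Slpi*-/- one (0.0804). *Il6* differed by 0.05 (limma adjusted p = 0.851). The leukaemia inhibitory factor gene *Lif* (9.95 and 8.73 in BMBs, 11.25 and 11.18 in mast cells) and *Tnfsf10*, which encodes TRAIL (at least 5.02-fold), were higher in mast cells.

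Of 21 tested chemokine genes, 12 were higher in BMBs and 2, *Ccl2* and *Ccl7*, in mast cells, with a median difference of 1.0. *Ccl3*, which attracts monocytes and other leukocytes, had signals of 12.83 and 12.84 in BMBs and was higher there by 2.46 (SE 0.18). *Pf4*, platelet factor 4, had signals of 9.88 and 10.16 in BMBs and was below background in mast cells (4.82 and 5.21), at least 19.6-fold lower there. *Ccl7*, which lies beside *Ccl2* and shares its receptor CCR2, had signals of 6.32 and 6.10 in BMBs, against 8.58 and 8.25 in mast cells (-2.20). CCR2 and its ligands thus ran in opposite directions, with *Ccr2* higher in BMBs and *Ccl2* and *Ccl7* higher in mast cells. *Ccl22* (7.58 and 9.23 in BMBs, 5.07 and 5.30 in mast cells) and *Ccl5* (7.55 and 9.97 in BMBs, 6.35 and 5.99 in mast cells) passed the test although the BMB arrays were far apart. Without the B6 and without the *Slpi*-/- BMB array, the difference was 4.14 and 2.31 for *Ccl22* and 3.85 and 1.33 for *Ccl5*, and without the *Slpi*-/- mast cell array *Ccl5* did not pass (1.76, limma adjusted p = 0.0519).

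Protease inhibitor genes were higher in BMBs at 9 of 20 tested and in mast cells at 5, with a median difference of 0.54. *Anxa1*, counted among the 9, is an inhibitor of phospholipase A2 and of leukocyte recruitment and not of a protease. It had signals of 10.36 and 10.07 in BMBs, against 5.02 and 4.57 in mast cells, at least 22.4-fold apart (limma adjusted p = 5.48e-07). *Serpinb2*, which blocks urokinase (4.53), and *Wfdc17*, of the same domain family as SLPI (at least 14.5-fold), were higher in BMBs, and *Serpinb6a* was higher in mast cells (-2.22). *Slpi* had a signal of 11.42 in B6 BMBs, against 6.53 in B6 mast cells, and 6.55 in *Slpi*-/- BMBs, against 6.47 in *Slpi*-/- mast cells. Only the B6 BMB array was thus high. Over both pairs the difference was 2.48 and did not pass (limma adjusted p = 0.0846). It was 4.48 and passed without the *Slpi*-/- BMB array (limma adjusted p = 0.000338) and 4.09 without the *Slpi*-/- mast cell array (0.00605), against 0.48 without the B6 BMB array (0.466) and 0.88 without the B6 mast cell array (0.471).

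Genes of innate sensing and of antigen presentation lay towards BMBs. Of 20 tested genes of Toll-like receptors and LPS sensing, 9 were higher in BMBs and 2 in mast cells (10 and 1 without the *Slpi*-/- mast cell array), with a median difference of 0.38. *Tlr13*, the sensor of bacterial ribosomal RNA in mice, had signals of 10.23 and 10.16 in BMBs, against 5.15 and 4.80 in mast cells, at least 22.1-fold apart. *Tlr2* was read unevenly in BMBs (9.04 in B6, 6.90 in *Slpi*-/-) and lay at 5.14 and 5.75 in mast cells (2.52, SE 0.56, limma adjusted p = 0.0123), and *Tlr4*, the LPS receptor, differed by 0.21 and did not pass. The difference of *Tlr2* was 1.31 without the B6 BMB array and 3.73 without the *Slpi*-/- one. Of 7 tested genes of the NADPH oxidase, 3 were higher in BMBs, *Cybb* (at least 3.06-fold), *Ncf1* (1.84) and *Cyba* (1.06), and the other 4 did not pass.

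MHC class II and costimulation genes were higher in BMBs at 13 of 18 tested, with a median difference of 1.1, and the other 5 did not pass. The invariant chain *Cd74* had signals of 8.47 and 9.47 in BMBs, against 5.21 and 5.08 in mast cells, at least 9.47-fold apart (limma adjusted p = 4.1e-05). *H2-Aa* had signals of 7.44 and 8.35 in BMBs, against 4.71 and 4.97 in mast cells. The class II genes were higher on the *Slpi*-/- BMB array than on the B6 BMB array and near or below background in mast cells. *Pdcd1lg2*, a ligand of PD-1 (at least 6.90-fold), and the costimulator *Cd86* (at least 1.98-fold, a measured difference of 2.37, or 3.07 without the B6 and 1.68 without the *Slpi*-/- mast cell array) were also higher in BMBs. Markers of monocytes, macrophages and dendritic cells moved with this list, with 8 of 13 tested higher in BMBs and 2 in mast cells, and their part in it was not tested.

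Metabolic genes differed at single steps, in both directions. Of 26 tested glycolysis genes, 8 were higher in BMBs and 9 in mast cells (5 and 7 without the B6 BMB array, 9 and 5 without the *Slpi*-/- one, and 8 and 4 without the *Slpi*-/- mast cell array). The entry step differed by isoform. *Hk3*, the hexokinase of myeloid cells, had signals of 9.18 and 8.89 in BMBs, against 5.35 and 4.99 in mast cells, at least 9.89-fold apart (limma adjusted p = 1.3e-06), and *Hk2* was higher in BMBs by 2.55. *Slc2a1*, the glucose transporter GLUT1, had signals of 10.75 and 10.76 in BMBs, against 12.30 and 12.19 in mast cells (-1.49, SE 0.10, limma adjusted p = 3.97e-05), whereas *Slc2a3*, the gene of GLUT3, was higher in BMBs by 1.06. Genes of the citric acid cycle and the respiratory chain were called less often (14.5% and 12.7%) than all genes tested (18.8% and 17.9%). Of 55 tested, 8 were higher in BMBs and 7 in mast cells. These counts were 4 and 7 without the B6 BMB array, 6 and 4 without the *Slpi*-/- one, 3 and 5 without the B6 mast cell array and 3 and 3 without the *Slpi*-/- one. The largest called differences were those of *Dlst* (1.01) and *Idh2* (-1.02), enzymes of the cycle.

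Lipid genes held some large differences at storage and uptake. *Dgat1*, which makes triglycerides, had signals of 10.30 and 10.73 in BMBs, against 7.21 and 7.29 in mast cells (3.27, SE 0.15, limma adjusted p = 1.05e-05). The fatty acid carrier *Fabp5* (at least 7.19-fold), the scavenger receptor *Cd36* (at least 2.03-fold) and the lipase *Mgll* (at least 4.07-fold) were higher in BMBs, and *Elovl7* (-1.94) and *Fads2* (-1.64), which elongate and desaturate fatty acids, were higher in mast cells. In this list of 30 tested genes, 9 were higher in BMBs (30.0%) and 8 in mast cells (26.7%). For fatty acid oxidation the shares were 25.9% in each direction, against 18.8% and 17.9% over all genes tested. Of 27 tested genes of fatty acid oxidation, 7 were higher in each cell type, among them *Decr1* (-1.41) and *Hadh* (-1.37) in mast cells and the rate-limiting *Cpt1a* (0.63) in BMBs, and without any single array the count in mast cells was 4. Of 26 tested genes of cholesterol synthesis and sterol control, 1 was higher in BMBs, the exporter *Abcg1* (1.52), and 7 in mast cells. *Insig1*, which holds back sterol synthesis, had signals of 7.23 and 6.73 in BMBs, against 8.84 and 9.34 in mast cells (-2.11, limma adjusted p = 0.000338), and the synthesis gene *Sqle* differed by -1.29. The count in mast cells was 11 without the B6 BMB array and 2 without either *Slpi*-/- array, and 3 were higher in BMBs without the *Slpi*-/- BMB array.

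Amino acid transport and redox genes held a few large differences. Of the amino acid list, 29.0% were higher in BMBs and 19.4% in mast cells, against 18.8% and 17.9% over all genes tested. *Slc7a5*, the large neutral amino acid transporter LAT1, had signals of 12.01 and 11.71 in BMBs, against 9.05 and 9.08 in mast cells (2.80, SE 0.12, limma adjusted p = 6.11e-06). The cystine transporter *Slc7a11* was at least 5.25-fold higher in BMBs. *Glul*, the glutamine synthetase, had signals of 9.58 and 9.93 in BMBs, against 12.10 and 12.29 in mast cells (-2.44, SE 0.11, limma adjusted p = 7.92e-06). In the list of 31 tested amino acid genes, 9 were higher in BMBs and 6 in mast cells, and the count in mast cells was 1 without either *Slpi*-/- array. Of 12 tested arginine genes, 5 were higher in BMBs and 2 in mast cells, with *Arg1*, the arginase of type 2 responses, at least 2.12-fold higher in BMBs and *Odc1*, the first enzyme of polyamine synthesis, higher in mast cells (-1.37). Of 20 tested genes of haem and iron, 8 were higher in BMBs and 2 in mast cells. Without the B6 BMB array 5 were higher in BMBs and both calls in mast cells were lost, without the B6 mast cell array 5 were higher in BMBs, and without either *Slpi*-/- array 1 was higher in mast cells. Among 30 tested glutathione and antioxidant genes, 9 were higher in each cell type, with *Gsr*, the glutathione reductase (1.80), in BMBs and *Nqo1*, a target of NRF2 (at least 4.11-fold), in mast cells, and without the *Slpi*-/- BMB array 5 were higher in BMBs.

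Cell cycle genes depended on the array. Of 46 tested, 15 were higher in BMBs and 4 in mast cells, with a median difference of 0.4, but 26 were higher in BMBs and 2 in mast cells without the *Slpi*-/- BMB array, while 7 were higher in BMBs without the B6 mast cell array and 23 without the *Slpi*-/- one. *Mki67*, a marker of cycling cells, had signals of 8.32 and 6.46 in B6 and *Slpi*-/- BMBs, against 5.93 and 5.48 in mast cells (1.68, SE 0.32, limma adjusted p = 0.00672). *Ccna2* had signals of 7.95 and 5.90 in BMBs, against 5.53 and 5.35 in mast cells. The B6 BMB array was the high one for both. Without it the differences were 0.98 for *Mki67* and 0.62 for *Ccna2*, without the *Slpi*-/- BMB array they were 2.38 and 2.35, and *Ccna2* did not pass without the B6 mast cell array (limma adjusted p = 0.132). *E2f2* was read more evenly (8.12 and 7.98 in BMBs, 5.96 and 5.56 in mast cells), and *Pcna* (10.05 and 9.48 in BMBs, 11.69 and 11.50 in mast cells) and *Cdk6* (8.60 and 8.16 in BMBs, 9.83 and 9.84 in mast cells) were higher in mast cells. Neutrophil granule genes moved with the B6 BMB array in the same way (*Mpo*, 8.84 in B6 and 6.0 in *Slpi*-/- BMBs), whereas *Ccl5*, *Ccl22*, *Ccr7* and *Cd74* were higher on the *Slpi*-/- BMB array. In BMBs given IgE and antigen, *Mpo* was read at 5.60 and 5.84 on the B6 and the *Slpi*-/- array and *Mki67* at 6.60 and 7.45. With 1 array each, genotype and culture cannot be told apart. Of 14 tested BCL2 family genes, 5 were higher in BMBs (35.7%) and 2 in mast cells (14.3%), against 18.8% and 17.9% over all genes tested. *Bcl2l11*, which encodes the death-promoting BIM, had signals of 8.64 and 8.93 in BMBs, against 7.56 and 7.50 in mast cells (1.25), and the survival gene *Bcl2* had signals of 10.18 and 10.07 in BMBs, against 11.68 and 11.53 in mast cells (-1.48, SE 0.09, limma adjusted p = 3.53e-05).

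**Figure D5:**
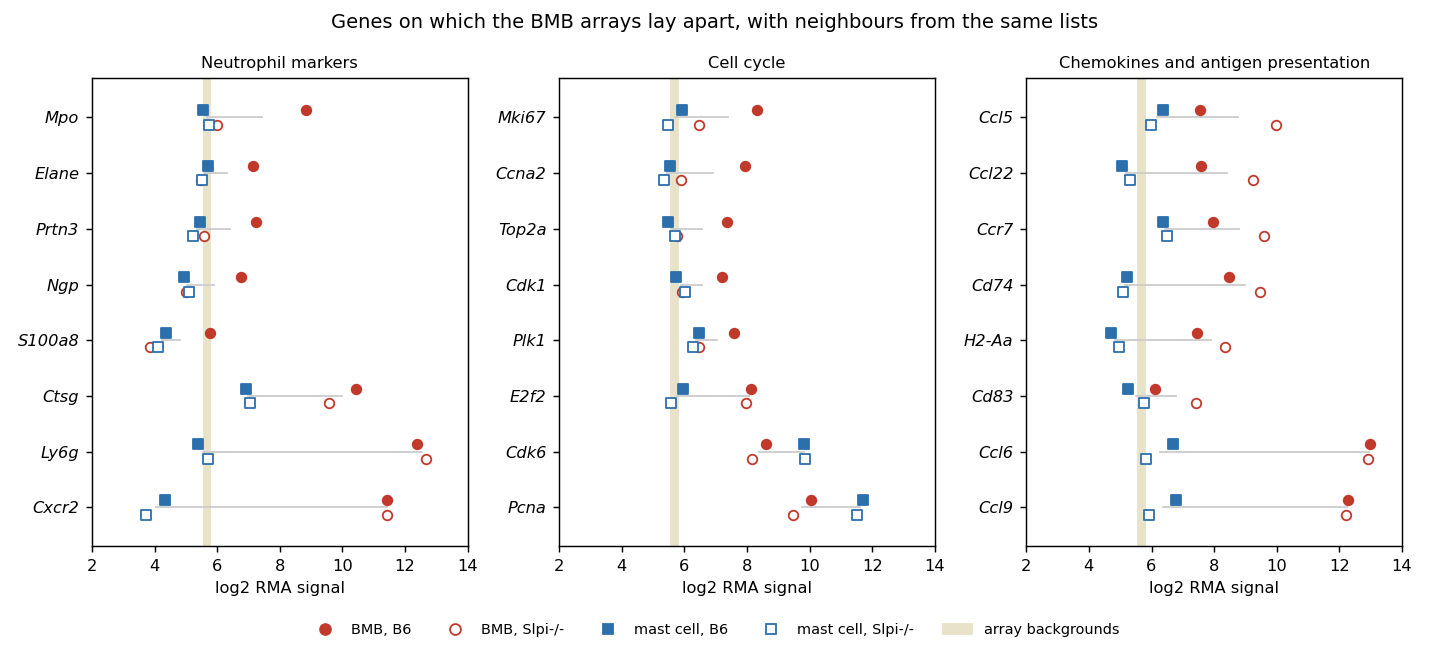
Log2 signals on each of the 4 arrays of neutrophil genes (left), cell cycle genes (middle) and chemokine, MHC class II and related genes (right), with the symbols of the other signal plots and a shaded band for the range of array backgrounds. For *Mpo*, *Elane*, *Mki67* and *Ccna2* the filled circle (B6 BMBs) lies far above the open one, for *Ccl5*, *Ccl22* and *Ccr7* the open circle (*Slpi*-/- BMBs) lies above the filled one, and the mast cell squares of these genes lie close together. For *Ccl6* and *Ccl9* the mast cell squares lie further apart than the circles.

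Against BMEos, the other granulocytes of the series, 5165 of 12998 genes (39.7%) differed from unstimulated BMBs by the same limma fit. Of the 2438 genes higher in BMBs than in mast cells, 957 were also higher than in BMEos, 821 did not pass against BMEos and 660 were lower than in BMEos. Both comparisons share the BMB arrays, so the values stand side by side without a test. *Mcpt8* (5.25 and 5.18 in BMEos) and *Mrgpra6* (4.33 and 4.42 in BMEos) were below background in BMEos as in mast cells. *Prss34* differed by 6.51 against mast cells and 7.05 against BMEos, *Hdc* by 3.62 and 4.41 and *Cebpa* by 3.83 and 3.43. *Ccl6* (6.69 and -0.14), *Itgb2* (4.59 and 0.27) and *Tlr13* (at least 22.1-fold and a difference of 0.35) were higher than in mast cells and did not pass against BMEos. *Alox15* (at least 21.1-fold and a difference of -2.54) and *Itgam* (at least 14.8-fold and -2.0) were higher in BMBs than in mast cells and lower than in BMEos. Of the genes higher in mast cells, *Tpsb2* (-1.56 and 5.30), *Hpgds* (-1.50 and 3.43) and *Gzmb* (-3.54 and 4.51) were higher in BMBs than in BMEos.

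MicroRNA genes were looked at after their values were seen. The probe sets read the hairpin genes, and any host transcript over them, not the mature arms. Of 300 named microRNA genes 119 were tested, of which 14 were higher in BMBs and 12 in mast cells, with a median difference of -0.09. Both shares were smaller than those over all genes tested (18.8% and 17.9%). A choice of those with larger differences and of pairs that share a seed, not a complete one, is printed from RefSeq with the seed (bases 2 to 8) in capitals.
mmu-miR-340-5p: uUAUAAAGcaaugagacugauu
mmu-miR-146b-5p: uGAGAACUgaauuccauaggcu
mmu-miR-107-3p: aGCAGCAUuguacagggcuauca
mmu-miR-103-3p: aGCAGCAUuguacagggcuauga
mmu-miR-132-3p: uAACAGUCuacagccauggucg
mmu-miR-212-3p: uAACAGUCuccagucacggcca
*Mir340* had signals of 7.56 and 7.94 in BMBs, against 5.47 and 5.33 in mast cells (at least 4.05-fold, limma adjusted p = 3.23e-05), and its host gene *Rnf130* was also higher in BMBs (1.37). *Mir146b*, of a family that dampens Toll-like receptor signals, had signals of 7.02 and 7.04 in BMBs, against 6.01 and 5.76 in mast cells (1.14). *Mir107* (0.82) and *Mir103-2* (0.64), whose mature 3p arms share the seed GCAGCAU, were both higher in BMBs. *Mir103-2* lay just above background in BMBs (5.71 and 5.70) and below it in mast cells (4.92 and 5.20). *Mir132* (4.97 and 4.61 in BMBs, 5.74 and 6.01 in mast cells) and *Mir212* (6.55 and 6.60 in BMBs, 7.31 and 7.44 in mast cells), neighbours on chromosome 11 that share the seed AACAGUC, were both higher in mast cells (limma adjusted p = 0.00197 and 0.000903). *Mir132* was above background on the *Slpi*-/- mast cell array alone.

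Few genes parted BMBs from mast cells in one genotype more than in the other by the test. Across genes tested, the differences of the 2 pairs correlated at 0.927, as a description, since genes are not independent, and the median gap between the pairs was 0.17. A test of the difference between the pairs, fitted on all 10 arrays with a term for each stimulus, called 2 of 13571 genes (0.0147%) by limma, with 701 at an unadjusted p of 0.05. The stimulated BMB arrays entered the BMB level of each genotype as well as the spread, so the value is not the plain gap between the unstimulated pairs. One was *Slpi* itself (-4.87, SE 0.20, limma adjusted p = 0.00192), the gene that is targeted. The other was *Slc27a6*, a fatty acid transporter, with signals of 4.76 and 4.63 in B6 and *Slpi*-/- BMBs, against 5.15 and 8.81 in mast cells (-3.67, SE 0.23, limma adjusted p = 0.0123). It was above background on the *Slpi*-/- mast cell array alone.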

How the data were processed

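RNA was read on 10 Affymetrix Mouse Gene 1.0 ST arrays, and the authors deposited log2 signals made with RMA in the Bioconductor package affy, 1 column per array (array medians 5.847 to 5.938). A probe set was named where the platform table gave it 1 symbol (21640 of 34760), with symbols updated by gene ID through RefSeq (GRCm38.p6), and the brightest of several probe sets was kept for 954 genes. The 6 unstimulated arrays were fitted with limma 3.58.1 (R 4.3.3) on cell type and genotype, which left 2 residual degrees of freedom, and p-values were adjusted by Benjamini-Hochberg over the 12998 genes tested, with a threshold of 0.05. The genotype block pairs the arrays because B6 and *Slpi*-/- arrays were each made in both cell types. A gene was tested when above background, the 95th percentile of olfactory receptor genes, on at least 1 of those arrays. For a gene below background on both arrays of a group, each dim value was raised to its array's background and the fold given as a lower bound. The precision is limited by the number of arrays. Named were *Mcpt8*, *Cma1*, *Slpi*, the 15 genes with the largest called difference in each direction and at most 8 called members per gene list, with members that did not pass where the list is about them. Beyond this rule, the list members *C3ar1*, *Ccl3*, *Ccl7*, *Ccr7*, *Cd300a*, *Cd69*, *Chst12*, *Creb3l1*, *Ctsf*, *Ets1*, *Gata1*, *Hes1*, *Hexa*, *Id1*, *Il13*, *Il4*, *Itgb1*, *Itgb5*, *Klf2*, *Ltc4s*, *Mitf*, *Myb*, *P2rx7*, *Snap23*, *Spi1*, *Stim1* and *Syk* were named after their values were seen. Members and lists were chosen with earlier results of these data known. Alternatives were other scalings, filters, probe set rules, fits, a paired t-test as the methods describe it, fold minimums, and leaving out each of the 4 arrays, the last for gene lists added after seeing the data. The fit was also run on simulated data with independent noise drawn from its own variance model, and no value here rests on that run.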

Additional observations from a re-analysis of the deposited data

Results flagged for a closer look

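The difference between BMBs and mast cells depended on genotype, by a test of that difference itself in limma over all 10 arrays, for 2 genes. The fit had a term for each stimulus and used the stimulated BMB arrays too, so its value, for *Slpi*-/- minus B6, is not the plain gap between the unstimulated pairs. For *Slpi*, it gave -4.87 (SE 0.20, limma adjusted p = 0.00192), with a difference between unstimulated BMBs and mast cells of 0.08 in the *Slpi*-/- pair and 4.89 in the B6 pair. For *Slc27a6* it gave -3.67 (SE 0.23, limma adjusted p = 0.0123), with differences of -4.18 and -0.39 in these pairs, and the value rests on the single *Slpi*-/- mast cell array. Over the settings of the processing the value lay between -4.89 and -4.87 for *Slpi* and between -3.82 and -3.67 for *Slc27a6*. The next gene, *Myef2* (2.15), did not pass (limma adjusted p = 0.0596).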

How the results depend on the processing

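Of 12998 genes tested, 2449 (1358 higher in BMBs, 1091 in mast cells) passed in the same direction in the fit reported and in all 14 other limma settings. The number of genes higher in BMBs lay between 2139 and 2601 and that higher in mast cells between 2030 and 2543 under other scalings, filters, probe set rules and fits. Leaving out 1 array gave between 1775 and 2173 genes higher in BMBs and between 1628 and 1933 higher in mast cells. The methods' t-test, on 2 pairs and so with 1 degree of freedom, called 0 genes higher in BMBs and 0 in mast cells after Benjamini-Hochberg adjustment and 2336 genes in all at an unadjusted p of 0.05. With a minimum of 1.5-fold in both genotypes 1247 genes were higher in BMBs and 1058 in mast cells, and with 4-fold 229 and 185. In the fit without the genotype as a block, that is without pairing the arrays, 2465 genes were higher in BMBs and 2411 in mast cells, and of the named genes *Ccna2* and *Fcer1a* no longer passed. Of the named genes, array median centring lost the calls of *Gata1*, *Il13* and *Ms4a2*, the 10-array fit those of *Fcer1a* and *Il13*, the 4-array fit those of *Gata1* and *Ms4a2*, and testing all named genes those of *Fcer1a*, *Gata1*, *Il13* and *Ms4a2*, while no called gene changed sign in any setting. The 2 genotype-dependent genes passed in each of the other settings run for that test. With 1 array per cell type and genotype, the small number of arrays limits the precision, and a dim gene has only a bound in the cell type where it lay below background.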

Other observations

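Further genes of the first response to a stimulus were higher in mast cells. These genes were chosen after their values were seen. *Junb* had signals of 7.34 and 7.35 in BMBs, against 10.70 and 10.95 in mast cells (-3.48, limma adjusted p = 1.88e-06). *Ier2* had signals of 7.30 and 7.52 in BMBs, against 11.40 and 11.51 in mast cells (-4.04, limma adjusted p = 1.44e-06). *Dusp1*, a phosphatase that ends MAP kinase signals, had signals of 8.82 and 8.52 in BMBs, against 12.40 and 12.22 in mast cells (-3.64, limma adjusted p = 2.18e-06). *Nfkbiz* (-3.22), *Csrnp1* (-2.98), *Ppp1r15a* (-2.90), *Dusp4* (-2.74), *Ier3* (-2.64), *Nr4a2* (-2.24) and *Zfp36* (-2.11) were also higher in mast cells. Others were not, since *Atf3* (-0.15), *Fosl1* (-0.21) and *Fosl2* (-0.28) did not pass and *Dusp6* (1.27) and *Sgk1* (at least 2.60-fold) were higher in BMBs. The feedback genes *Socs3* (-1.75), *Socs1* (-1.30) and *Cish* (-1.16) were higher in mast cells.

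Of 4 heat shock genes looked at, 2 were higher in mast cells. The co-chaperone *Dnajb1* had signals of 7.45 and 7.36 in BMBs, against 10.53 and 10.67 in mast cells (-3.20, limma adjusted p = 1.62e-05), and *Dnaja4* differed by -3.18, whereas *Hspa8* (-0.09) and *Hspd1* (-0.02) did not pass. These were chosen after their values were seen as well.

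Several genes best known from other tissues had large differences and were likewise chosen after their values were seen. *Grm6*, a glutamate receptor of the retina, had signals of 10.28 and 10.13 in BMBs, against 5.45 and 5.46 in mast cells (at least 22.2-fold). *Cdh1*, the epithelial cadherin, had signals of 11.47 and 11.39 in BMBs, against 6.11 and 6.02 in mast cells (5.36). The synapsin gene *Syn2* (-4.62), the progesterone receptor *Pgr* (at least 15.4-fold) and the prion protein gene *Prnp* (7.65 and 8.76 in BMBs, 12.21 and 12.33 in mast cells) were higher in mast cells.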
